A study of Mus musculus with 48 samples.

Results

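A set of 31 genes of sterol and fatty acid synthesis was followed across 48 mouse RNA-seq libraries, which fall into 16 groups of 3. They were taken by symbol from the 24054 gene rows of the deposited count table, and all 31 were found. By role, 7 encode the isoprenoid steps, 11 the steps between farnesyl diphosphate and cholesterol, 6 the regulators and a sterol carrier, and 7 the synthesis, elongation, desaturation and activation of fatty acids. The cultured groups are 8 mouse mammary tumour lines. In the table header, the suffix Mes marks T11, 67NR, E0771 and PyMT-M and the suffix Epi marks PyMT-N, 4T1, AT3 and 2208L. Lines 2208L, 4T1, T11 and 67NR are labelled BALB/C, and PyMT-N, AT3, PyMT-M and E0771 are labelled C57BL/6. E0771 was grown in RPMI and the other lines in DMEM, all with 10% serum, at passage 7 for PyMT-M, 14 for PyMT-N and E0771, 15 for AT3, 19 for 67NR and between 15 and 20 for 2208L, 4T1 and T11. The sorted groups are macrophages (Ly6G-, Ly6C-, F4/80+) and neutrophils (Ly6G+ with medium to low Ly6C), both from live CD45+ CD11b+ cells of 2208L, AT3, T11 and E0771 tumours. Sorts of 2208L and T11 tumours are labelled BALB/C and those of AT3 tumours C57BL/6. E0771 macrophage 1 and E0771 neutrophil 1 are labelled BALB/C while the rest of their groups are labelled C57BL/6. Where tumours of both strains are compared, tumour and strain cannot be told apart. No group carried a treatment or an introduced allele in the labels. Nothing in the labels ties the 3 libraries of a group to separate cultures or animals, so p-values measure the spread between these libraries, which may be technical.

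Cells make cholesterol and fatty acids from cytosolic acetyl-CoA. When membranes of the endoplasmic reticulum are poor in sterol, the escort protein SCAP carries the membrane-bound SREBP transcription factors to the Golgi, where they are cut and released to the nucleus, and the INSIG proteins hold the complex back when sterol is plentiful. SREBP-2, encoded by Srebf2, is known chiefly as an activator of cholesterol synthesis genes, and SREBP-1, encoded by Srebf1, as an activator of fatty acid synthesis genes. Tumour cells in culture and tumour-associated myeloid cells both run this pathway and also take up lipid from serum or from other cells.

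Because these genes share regulators, the 250 bases before the start site were read from RefSeq promoters of mouse build GRCm38.p6, which 25 of the 31 genes had. Fdft1, Scd2, Stard4, Fdps, Sqle and Scd1 had no entry. The 6 promoters shown belong to genes of each role whose levels are described below, each on the gene's own strand, 5′ to 3′. Capitals mark the CCAAT box (letters CCAAT, read as ATTGG on the other strand) and the sterol regulatory element core (letters CACNCCAC, on either strand).
Hmgcs1, chr13:119690101-119690350, plus strand: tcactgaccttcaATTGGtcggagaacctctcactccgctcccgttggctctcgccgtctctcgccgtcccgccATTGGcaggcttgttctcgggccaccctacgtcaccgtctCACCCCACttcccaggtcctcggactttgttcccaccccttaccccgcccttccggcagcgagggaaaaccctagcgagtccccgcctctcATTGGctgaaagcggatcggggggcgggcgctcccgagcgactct
Cyp51, chr5:4104698-4104947, minus strand: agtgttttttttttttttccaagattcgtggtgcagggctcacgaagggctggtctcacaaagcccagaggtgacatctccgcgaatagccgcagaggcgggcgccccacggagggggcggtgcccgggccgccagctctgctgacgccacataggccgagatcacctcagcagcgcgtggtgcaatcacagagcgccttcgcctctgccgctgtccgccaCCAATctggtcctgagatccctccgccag
Msmo1, chr8:64733579-64733828, minus strand: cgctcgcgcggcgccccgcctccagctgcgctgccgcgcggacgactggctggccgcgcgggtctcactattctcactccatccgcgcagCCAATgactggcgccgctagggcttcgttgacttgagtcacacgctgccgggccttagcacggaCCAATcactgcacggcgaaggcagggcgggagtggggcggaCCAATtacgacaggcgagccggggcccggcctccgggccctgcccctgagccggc
Srebf2, chr15:82147019-82147268, plus strand: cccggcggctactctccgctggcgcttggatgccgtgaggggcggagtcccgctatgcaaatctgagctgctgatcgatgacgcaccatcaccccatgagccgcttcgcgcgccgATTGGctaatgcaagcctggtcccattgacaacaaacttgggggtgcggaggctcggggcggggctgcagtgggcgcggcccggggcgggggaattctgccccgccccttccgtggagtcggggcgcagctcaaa
Insig1, chr5:28071162-28071411, plus strand: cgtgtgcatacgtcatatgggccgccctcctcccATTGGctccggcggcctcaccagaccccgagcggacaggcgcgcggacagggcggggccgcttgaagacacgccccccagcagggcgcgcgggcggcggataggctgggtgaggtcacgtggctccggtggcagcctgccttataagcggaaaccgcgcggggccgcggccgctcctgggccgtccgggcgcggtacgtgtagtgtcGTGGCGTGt
Fasn, chr11:120824548-120824797, minus strand: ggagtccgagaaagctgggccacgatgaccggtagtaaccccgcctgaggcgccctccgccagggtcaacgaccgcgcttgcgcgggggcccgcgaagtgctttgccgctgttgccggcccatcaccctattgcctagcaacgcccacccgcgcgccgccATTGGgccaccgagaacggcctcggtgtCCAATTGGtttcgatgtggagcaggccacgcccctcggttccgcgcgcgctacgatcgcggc
The CCAAT box stood before 20 of the 25 member genes (80.0%) and before 37.5% of all 27025 genes with an entry. A gene with several start sites, such as Dhcr7, Insig2 or Srebf1, was counted once if any of its 250-base windows held the motif. The GC box (GGGCGG) stood in 21 of 25 (84.0%), against 35.4% of all. The sterol element core stood in 3 of 25 (12%), against 6.05% of all, and the E-box CACGTG in 5 of 25 (20.0%), against 6.86%. Both strands were searched, and in the Fasn promoter one CCAAT and one ATTGG share letters. These counts describe letters in a window and not bound sites.

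Depth set how finely the genes could be read. Counts outside Rn45s and Lars2, an rRNA gene and a gene that took up to 17.6% of counts in lines, ran from 1632056 to 4773926 per library in lines, from 679256 to 1746192 in macrophages and from 467360 to 1179380 in neutrophils. All levels below are CPM, counts scaled to a common library total that leaves out those 2 genes. The 31 genes together took 0.291% to 0.612% of them in lines, 0.157% to 0.241% in macrophages and 0.143% to 0.245% in neutrophils. As a measure of background, 1440 olfactory and vomeronasal receptor genes summed to 745 to 3365 CPM in lines, 876 to 3256 CPM in macrophages and 3877 to 18900 CPM in neutrophils. Per base of exon, 30 of the 31 genes lay at least 10 times above the receptor genes in lines (all but Tm7sf2), 26 did in macrophages and 6 did in neutrophils (Acly, Fasn, Mvd, Scd1, Scd2 and Srebf2). Levels of the other 25 genes in neutrophils stood within 10 times of that background.

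**Figure D1:**
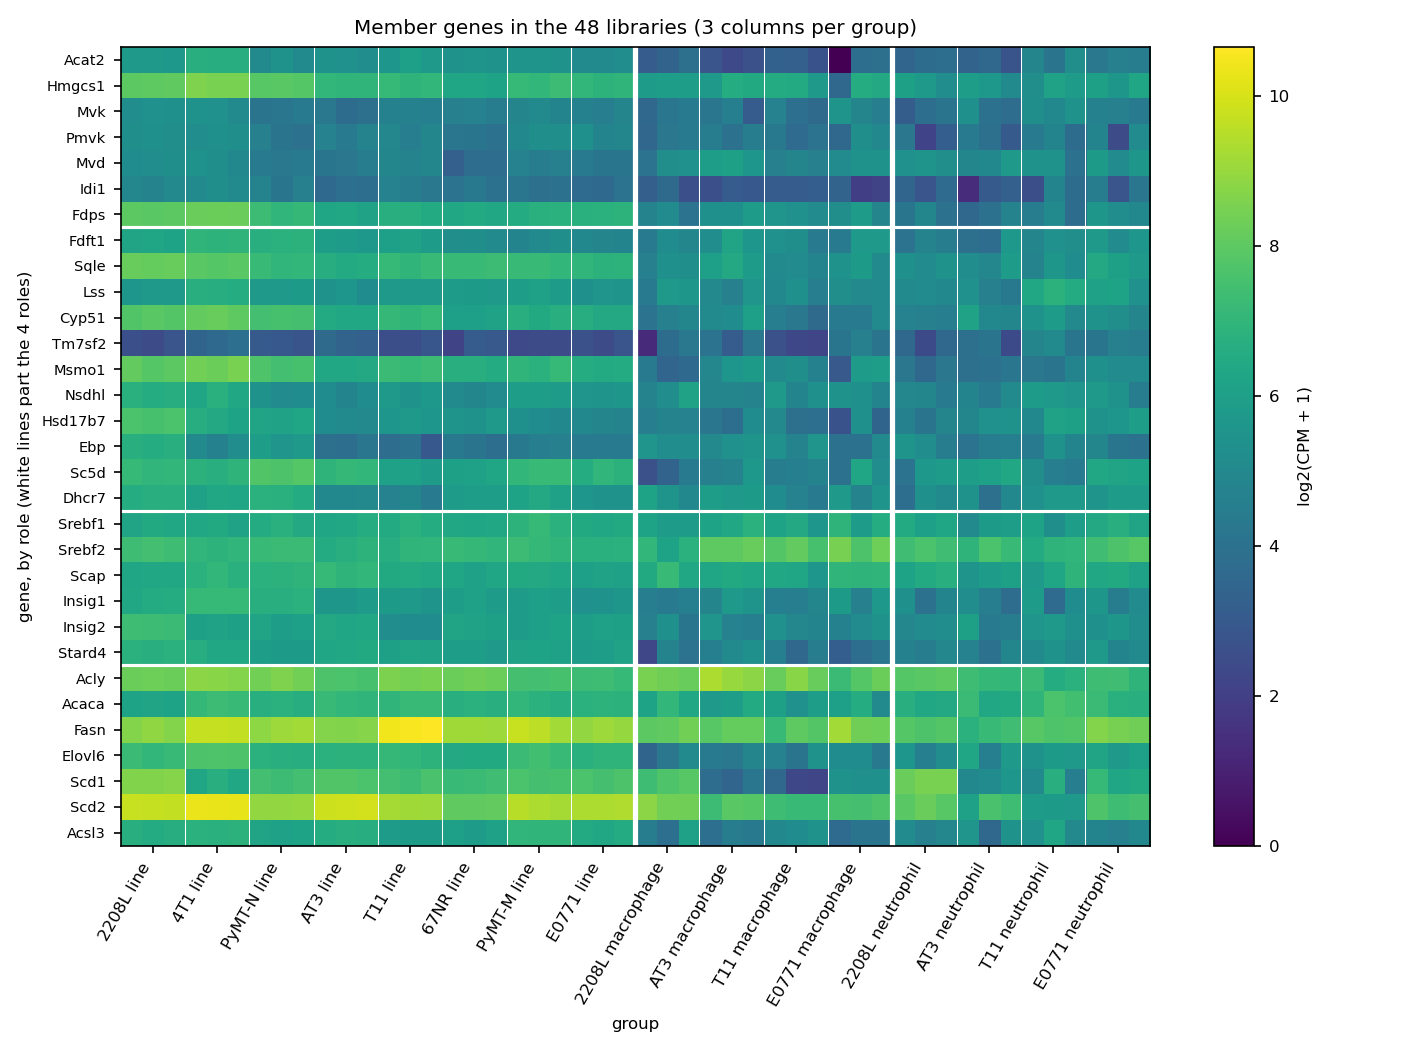
Level of each of the 31 genes (rows, by role) in each of the 48 libraries (3 columns per group) as log2(CPM + 1). The cultured lines are on the left, macrophages in the middle and neutrophils on the right; Fasn and Scd2 are bright throughout the lines, and most cholesterol synthesis genes are darker in the sorted cells.

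**Figure D2:**
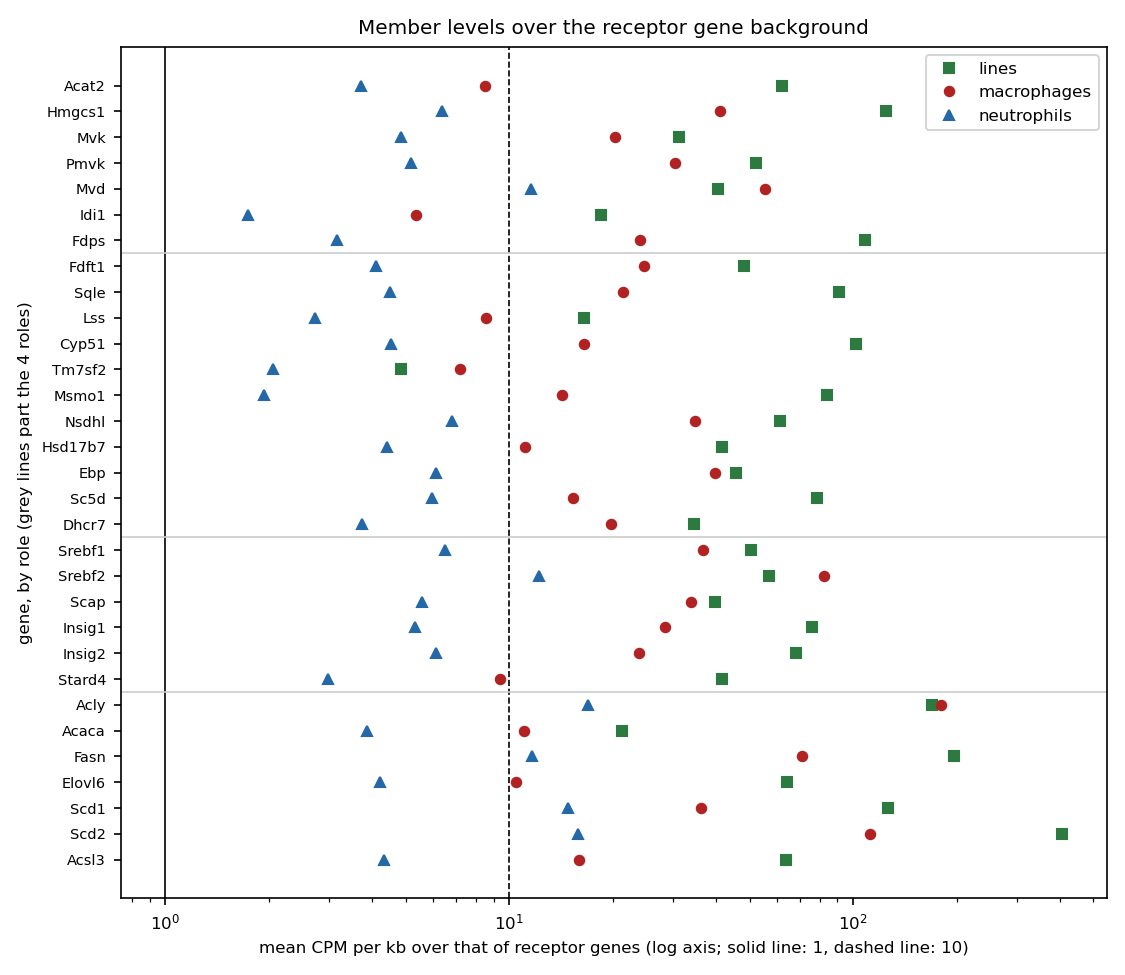
Mean level per kilobase of each gene in lines (squares), macrophages (circles) and neutrophils (triangles) divided by that of the receptor genes, on a log axis. The dashed line is at 10; 30 genes lie right of it in lines, 26 in macrophages and 6 in neutrophils.

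Among the cultured lines, every one of the 31 genes differed (edgeR quasi-likelihood F test over the 8 lines, adjusted p below 0.05), where 89.1% of all 18348 genes tested did. The level of the highest line over that of the lowest ran from 1.51-fold for Srebf1 to 8.87-fold for Ebp, with a median of 3.11-fold. 4T1 was the highest line for 15 genes and 2208L for 10. AT3 was the lowest line for 8 genes, 67NR for 7, E0771 for 6 and T11 for 5. These ranks are by mean CPM, and some overlapped the next line. At the top, Mvk, Pmvk, Mvd, Tm7sf2, Nsdhl and Acaca overlapped. At the bottom, Mvk, Idi1, Fdps, Lss, Srebf2 and Fasn overlapped in AT3, and Pmvk and Nsdhl in 67NR. So did Acat2, Fdft1, Scap and Insig1 in E0771, and Ebp and Sc5d in T11. How often each line ranks first or last over all genes was not counted. In the summed level of the 11 steps after farnesyl diphosphate, 2208L (1515 ± 21.9 CPM), 4T1 (1467 ± 11.1 CPM) and PyMT-N (1153 ± 37.9 CPM) stood above PyMT-M (792 ± 8.38 CPM), T11 (736 ± 17.3 CPM), 67NR (634 ± 9.28 CPM), E0771 (630 ± 7.10 CPM) and AT3 (612 ± 13.3 CPM; SD, n = 3 each). 67NR and E0771 did not differ beyond their spread, and neither did E0771 and AT3.

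Within the 4 pairs of lines of one strain, the Epi-marked line was compared with the Mes-marked line. All 24 line libraries were fitted together, scaled with TMM factors, which centre the bulk of genes between libraries. Here and below, log2 differences and p-values come from such fits, while levels and overlaps are in CPM. The 2 scales can differ in size and sign. In 4T1 against 67NR, 26 genes were higher and 2 lower (background 47.8% of all genes in either direction, 23.6% higher and 24.3% lower), with a median log2 difference of 0.72 over the 31 genes and 0.11 over all genes tested. In 2208L against T11, 23 were higher and 2 lower (background 41.4%, 22.7% higher and 18.7% lower), with medians of 0.79 and -0.03. In PyMT-N against PyMT-M, 16 were higher and 5 lower (background 44.6%, 24.5% higher and 20.1% lower), with medians of 0.32 and -0.06. AT3 against E0771 had 4 higher and 11 lower (background 45.7%, 20.4% higher and 25.3% lower), with medians of -0.14 and 0.08. The mean of the 4 differences was positive and called for 26 genes and negative and called for 2, Fasn and Srebf1 (background 47.8%, 23.7% higher and 24% lower). The call of Srebf1 (log2 -0.14, adjusted p = 0.030) was lost in the DESeq2 test, with factors from genes above the receptor background (log2 -0.11), and without 2208L line 1, 4T1 line 3, PyMT-N line 1 or 3, AT3 line 1 or 2, T11 line 2 or PyMT-M line 2. Among the 26 higher, the call of Scd1 (log2 0.12, adjusted p = 0.031) was lost with no filter on low counts and without 2208L line 3, 4T1 line 2, AT3 line 3, T11 line 2, 67NR line 1 or 2, PyMT-M line 2 or 3 or E0771 line 1. That of Srebf2 (log2 0.14, adjusted p = 0.024) was lost without 2208L line 2, 4T1 line 1, AT3 line 3, T11 line 1, 67NR line 3 or PyMT-M line 3. The 4 differences were not equal for 29 of the 31 genes (interaction F test, background 69.8%), and Tm7sf2 and Srebf1 did not pass that test.

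Scaling moved these splits. With library size alone, the median over all genes shifted by 0.14 in 4T1 against 67NR, -0.14 in 2208L against T11, -0.28 in PyMT-N against PyMT-M and 0.19 in AT3 against E0771, and the members split as 27 higher and 1 lower, 20 and 4, 13 and 10, and 9 and 8. The share of all called genes that were higher became 59.9% in place of 49.3%, 43.1% in place of 54.8%, 34.2% in place of 54.9%, and 61.9% in place of 44.6%, in the same order. With factors from genes above the receptor background the members split as 27 and 1, 23 and 4, 16 and 7, and 10 and 8. The size factors of DESeq2 gave the same splits as TMM. No called member changed sign in any line comparison under these scalings. In AT3 against E0771 the calls that held under all of them were Fdft1, Tm7sf2, Scd2 and Scap (higher) and Fasn, Sqle, Fdps, Pmvk, Mvk, Dhcr7, Ebp and Nsdhl (lower).

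Markers of cell state were read in the same libraries. The summed level of 7 epithelial markers was 3328 to 3569 CPM in 4T1 against 22.4 to 29.6 CPM in 67NR, 4838 to 5142 CPM in 2208L against 105 to 127 CPM in T11, and 5197 to 5276 CPM in PyMT-N against 91.0 to 102 CPM in PyMT-M. In the AT3 line it was 89.7 to 104 CPM, below the 186 to 214 CPM of the E0771 line. A list of 6 mesenchymal or fibroblast markers summed to 2044 to 2082 CPM in AT3 and 950 to 1010 CPM in E0771. The E0771 epithelial sum rested mostly on Krt8, and the AT3 mesenchymal sum mostly on Col3a1. Krt8 read 22.2, 19.5 and 20.4 CPM in AT3, against 190.5, 165 and 173.5 CPM in E0771. Col3a1 read 1775, 1763 and 1737 CPM in AT3, against 195.8, 165 and 169 CPM in E0771. The largest part was Krt18 in the AT3 epithelial sum and Sparc in the E0771 mesenchymal sum. Some other genes of the lists ran the other way. The keratin gene Krt18 was higher in AT3 (51.0, 50.5 and 48.2 CPM, against 3.53, 3.16 and 5.18 CPM in E0771), and Sparc was lower (236, 254 and 256 CPM, against 731, 779 and 713 CPM in E0771). The epithelial sum of AT3 thus lay far below those of the other Epi-marked lines, while its markers did not order AT3 and E0771 in 1 direction. AT3 and E0771 were also grown in different media, so line and medium cannot be told apart there; the part of cell state in the members' differences was not tested.

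**Figure D3:**
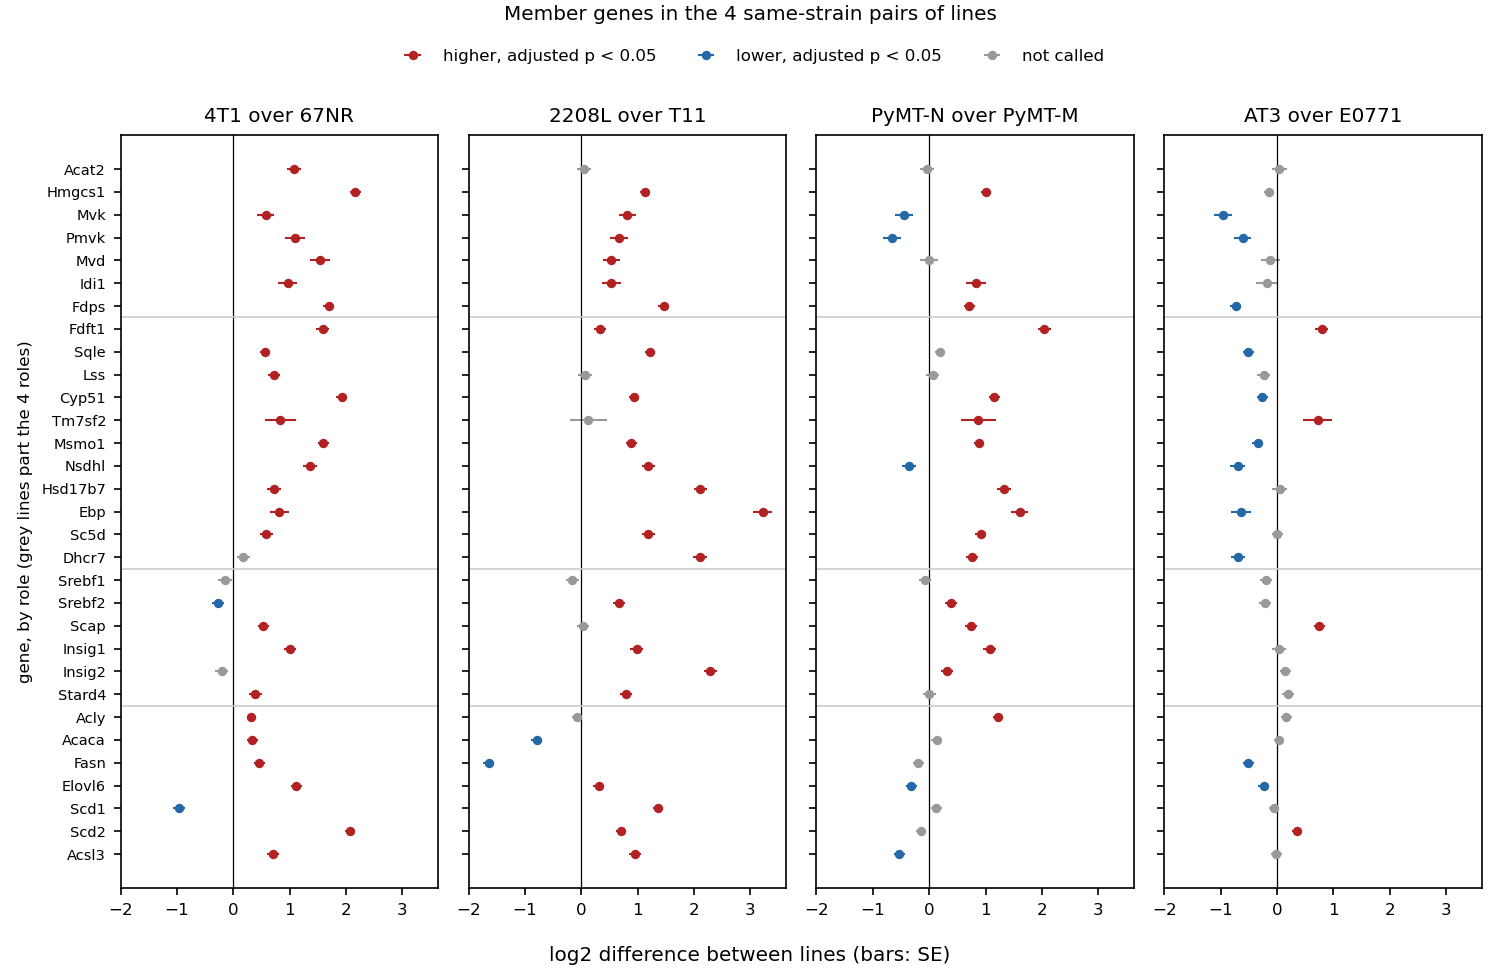
Log2 difference of each gene in the 4 same-strain pairs of lines, the Epi-marked line over the Mes-marked one, with SE; red and blue points have an adjusted p below 0.05. Red points fill the first 2 panels and the cholesterol part of the third, while in AT3 over E0771 4 points are red and 11 blue.

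The isoprenoid genes turn acetyl-CoA into farnesyl diphosphate. All 7 were higher in 4T1 than in 67NR, where 23.6% of all genes were. In 2208L against T11, 6 of 7 were higher, where 22.7% of all genes were. The exception was Acat2, the thiolase of the first step. Hmgcs1, which makes HMG-CoA (chr13:119690379-119708260, plus strand), read 386, 359 and 362 CPM in 4T1, against 75.9, 77.4 and 70.5 CPM in 67NR, a log2 difference of 2.17 ± 0.09 (SE; adjusted p = 1.4e-35). Its level was 250, 256 and 266 CPM in 2208L, against 139, 120 and 130 CPM in T11 (log2 1.13 ± 0.09, adjusted p = 5.8e-19). In PyMT-N it was 237, 244 and 225 CPM, against 141, 132 and 155 CPM in PyMT-M (log2 1.01 ± 0.09, adjusted p = 3.7e-17). The groups did not overlap in any of these 3 pairs. In AT3 Hmgcs1 read 133, 124 and 125 CPM, against 130, 119 and 123 CPM in E0771, groups that overlapped (log2 -0.14 ± 0.09, adjusted p = 0.22). Its mean CPM was higher in AT3, at 127.6 against 123.7, while the TMM-scaled difference was negative and not called.

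Fdps, farnesyl diphosphate synthase (chr3:89093588-89101959, minus strand), read 298, 302 and 300 CPM in 4T1, against 81.4, 91.1 and 81.0 CPM in 67NR (log2 1.69 ± 0.10, adjusted p = 3.1e-28). It read 251, 242 and 249 CPM in 2208L, against 105, 100 and 90.1 CPM in T11 (log2 1.47 ± 0.10, adjusted p = 4.5e-24). The PyMT-N libraries held 156, 129 and 134 CPM, against 94.0, 109 and 111 CPM in PyMT-M (log2 0.71 ± 0.10, adjusted p = 9.4e-10). In AT3 the order turned: 77.7, 81.1 and 69.9 CPM in AT3, against 107, 112 and 116 CPM in E0771, with no overlap (log2 -0.73 ± 0.10, adjusted p = 9.1e-10). Fdps shares 26.7% of its exon length with Gm43738, a gene on the same strand that has no row among the deposited counts. How reads there were counted is not given. Idi1, the isomerase of isopentenyl diphosphate, was higher in the first 3 pairs by 0.53 to 0.96 on the log2 scale; the 0.53 of 2208L against T11 lost its call with library size alone and without T11 line 3. The mevalonate and phosphomevalonate kinases Mvk and Pmvk were higher in 4T1 and in 2208L, and lower in PyMT-N (log2 -0.45 and -0.66) and in AT3 (log2 -0.95 and -0.61). The PyMT-N call of Mvk was lost in 2 of the 6 runs that left out 1 library. Mvk stood at 17.9, 12.8 and 14.0 CPM in AT3, against 24.4, 22.6 and 27.9 CPM in E0771, with no overlap (SE 0.16, adjusted p = 5.0e-07). Mvd, the decarboxylase that follows them, was higher in 4T1 (log2 1.54 ± 0.18) and in 2208L (log2 0.54 ± 0.15) and was not called in the other pairs.

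The steps after farnesyl diphosphate build squalene, close it into the sterol ring and trim it to cholesterol. In the mean of the 4 pairs all 11 were called higher, by 0.15 to 1.25 on the log2 scale. The smallest, Lss (adjusted p = 0.023), lost its call with no filter and without AT3 line 2, 67NR line 3, PyMT-M line 3 or E0771 line 1. Of these 11, 10 were higher in 4T1, 9 in 2208L and 8 in PyMT-N, and 1 was lower, Nsdhl in PyMT-N. In AT3 against E0771, 2 were higher and 6 lower. Over all genes, 23.6%, 22.7% and 24.5% were higher in the first 3 pairs, and 20.1% were lower in PyMT-N. In AT3, 20.4% of all genes were higher and 25.3% lower, and in the mean of the 4 pairs 23.7% were higher. Fdft1, squalene synthase and the first enzyme committed to sterols, was the one member higher in all 4 pairs. Its levels were 123, 118 and 120 CPM in 4T1, against 37.1, 38.6 and 32.8 CPM in 67NR (log2 1.59 ± 0.11, adjusted p = 7.7e-22). They were 105, 109 and 114 CPM in PyMT-N, against 26.6, 31.9 and 38.9 CPM in PyMT-M (log2 2.05 ± 0.12, adjusted p = 5.8e-28). AT3 had 60.5, 57.4 and 50.0 CPM, against 30.4, 27.8 and 27.3 CPM in E0771 (log2 0.79 ± 0.12, adjusted p = 5.1e-08). In 2208L it read 74.1, 76.4 and 70.4 CPM, against 63.6, 70.1 and 57.6 CPM in T11, next to each other without overlap (log2 0.33 ± 0.11, adjusted p = 0.012), and that call was lost with library size alone and without T11 line 3. Fdft1 shares 18.3% of its exon length with Ctsb on the other strand. The strand setting of the counting is not given, so whether reads there were told apart is not known. Ctsb averaged 214 CPM in 4T1, against 596 CPM in 67NR, the opposite order.

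Cyp51, lanosterol demethylase, read 273, 286 and 256 CPM in 4T1, against 63.2, 64.3 and 68.3 CPM in 67NR (log2 1.92 ± 0.10, adjusted p = 2.0e-31). In PyMT-N it read 178, 184 and 180 CPM, against 103, 87.4 and 105 CPM in PyMT-M (log2 1.16 ± 0.09, adjusted p = 3.6e-19). Msmo1, which oxidises the methyl groups of sterols, read 330, 306 and 358 CPM in 4T1, against 102, 104 and 92.9 CPM in 67NR (log2 1.59 ± 0.10, adjusted p = 2.2e-26). For both genes the groups stood apart in these pairs. In AT3 against E0771 both were lower by a small step (log2 -0.26 ± 0.10 and -0.35 ± 0.10), and those 2 calls were lost with library size alone and with factors from genes above background.

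Several late sterol steps differed widely between 2208L and T11. Ebp, a sterol isomerase, had 102, 96.2 and 104 CPM in 2208L, against 12.8, 14.5 and 6.74 CPM in T11, the largest difference of any member in a line pair (log2 3.22 ± 0.16, adjusted p = 2.2e-31). Hsd17b7, a sterol ketone reductase, had 196, 189 and 199 CPM in 2208L, against 47.1, 53.8 and 47.2 CPM in T11 (log2 2.11 ± 0.11, adjusted p = 1.5e-30). Dhcr7, the reductase of the last step in one branch, had 94.3, 104 and 99.8 CPM in 2208L, against 25.6, 28.97 and 19.6 CPM in T11 (log2 2.11 ± 0.13, adjusted p = 5.7e-26). None of the 3 overlapped between these lines. In PyMT-N against PyMT-M, Ebp read 60.9, 46.3 and 52.3 CPM, against 18.7, 22.3 and 23.6 CPM (log2 1.60 ± 0.15, adjusted p = 2.9e-16). Hsd17b7 read 72.8, 68.7 and 76.1 CPM in PyMT-N, against 39.7, 35.4 and 30.2 CPM in PyMT-M (log2 1.33 ± 0.12, adjusted p = 1.5e-16). Both stood apart without overlap.

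Sqle, squalene epoxidase (chr15:59315077-59331192, plus strand), followed another order from Hmgcs1 and Fdps. It read 284, 279 and 284 CPM in 2208L, against 138, 122 and 144 CPM in T11 (log2 1.22 ± 0.09, adjusted p = 4.6e-21). In 4T1 it read 242, 230 and 244 CPM, against 145, 144 and 156 CPM in 67NR (log2 0.55 ± 0.09, adjusted p = 1.4e-07). Both BALB/C pairs thus had the Epi-marked line higher, with no overlap. PyMT-N held 142, 126 and 130 CPM and PyMT-M 146, 147 and 132 CPM, which overlapped. The mean CPM of Sqle was lower in PyMT-N, while the TMM-scaled difference was positive and not called (log2 0.19 ± 0.09, adjusted p = 0.081). In AT3 it was 98.1, 91.3 and 95.2 CPM, against 128, 113 and 116 CPM in E0771, without overlap (log2 -0.51 ± 0.09, adjusted p = 3.2e-06). Nsdhl, a dehydrogenase in the removal of sterol methyl groups, was higher in 4T1 and in 2208L (log2 1.37 ± 0.13 and 1.19 ± 0.12) and lower in PyMT-N and in AT3 (log2 -0.36 ± 0.12 and -0.70 ± 0.13). The PyMT-N call of Nsdhl was lost in 3 of the 6 runs that left out 1 library. Tm7sf2, a sterol reductase, read 3.53 to 13.9 CPM over all 24 line libraries, less than 10 times the receptor background, and shares 12.1% of its exon length with Vps51 on the same strand.

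Among the regulators, the genes of the transcription factors changed least between lines. Srebf1 differed 1.51-fold between its highest and lowest line and passed in none of the 4 pairs, with log2 differences between -0.20 and -0.07. Its levels were 83.3, 87.3 and 70.3 CPM in 4T1, against 81.1, 78.2 and 82.5 CPM in 67NR, which overlapped. Srebf2 differed 1.59-fold between its highest and lowest line. It read 162, 176 and 163 CPM in 2208L, against 98.3, 122 and 129 CPM in T11, without overlap (log2 0.67 ± 0.11, adjusted p = 1.4e-07). In PyMT-N it read 143, 152 and 150 CPM, against 155, 135 and 124.5 CPM in PyMT-M, groups that overlapped (log2 0.38 ± 0.10, adjusted p = 0.0013), and this call was lost with library size alone. In 4T1 Srebf2 read 128, 117 and 127 CPM, against 147, 134 and 126 CPM in 67NR (log2 -0.27 ± 0.11, adjusted p = 0.034), groups that overlapped, and this call was lost with library size alone, with factors from genes above background, in the DESeq2 test and without 4T1 line 2 or 3 or 67NR line 1 or 2.

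Insig1, the retention protein that is itself a known SREBP target, was higher in the first 3 pairs by nearly equal steps. It read 138, 138 and 137 CPM in 4T1, against 61.3, 67.3 and 58.0 CPM in 67NR (log2 1.01 ± 0.11, adjusted p = 2.3e-13). In 2208L it read 83.0, 91.6 and 95.9 CPM, against 54.1, 51.1 and 44.1 CPM in T11 (log2 0.98 ± 0.12, adjusted p = 1.7e-11). PyMT-N held 105, 101 and 109 CPM, against 57.3, 63.8 and 61.6 CPM in PyMT-M (log2 1.07 ± 0.11, adjusted p = 1.9e-14). In AT3 it read 48.2, 48.8 and 57.7 CPM, against 40.9, 42.7 and 49.2 CPM in E0771, which overlapped (log2 0.03 ± 0.12, adjusted p = 0.85). Its paralog Insig2 read 162, 155 and 151 CPM in 2208L, against 35.95, 34.7 and 34.9 CPM in T11, without overlap (log2 2.29 ± 0.12, adjusted p = 1.6e-31), and was not called in 4T1 or AT3. Scap, the escort, was higher in 4T1, PyMT-N and AT3 by 0.54 to 0.75 on the log2 scale. AT3 had 138, 120 and 131 CPM of it, against 63.2, 70.0 and 67.9 CPM in E0771, without overlap (SE 0.10, adjusted p = 5.9e-10). Stard4, a cytosolic sterol carrier, was higher in 4T1 and in 2208L, and its 4T1 call was lost in 1 of the 6 runs that left out 1 library.

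The fatty acid genes did not share 1 direction. Of the 7, 6 were higher and 1 lower in 4T1, 4 higher and 2 lower in 2208L, 1 higher and 2 lower in PyMT-N, and 1 higher and 2 lower in AT3, where 47.8%, 41.4%, 44.6% and 45.7% of all genes were called. The 3 of 7 in PyMT-N and in AT3 lie near those shares. Fasn, fatty acid synthase (chr11:120805846-120824547, minus strand), was highest in a Mes-marked line. It read 412, 473 and 411 CPM in 2208L, against 1372, 1501 and 1603 CPM in T11, without overlap (log2 -1.64 ± 0.10, adjusted p = 2.9e-26). In 4T1 it read 845, 847 and 815 CPM, against 560, 552 and 546 CPM in 67NR (log2 0.46 ± 0.10, adjusted p = 5.0e-05). The BALB/C pairs thus ran in opposite directions, each without overlap. PyMT-N held 459, 549 and 572 CPM and PyMT-M 858, 766 and 575 CPM, next to each other without overlap (log2 -0.19 ± 0.10, adjusted p = 0.11). AT3 held 412, 391 and 418 CPM, against 486, 538 and 502 CPM in E0771, without overlap (log2 -0.51 ± 0.10, adjusted p = 1.1e-05). Acaca, acetyl-CoA carboxylase, which makes the malonyl-CoA used by the synthase, was also lower in 2208L, with 71.2, 73.1 and 71.6 CPM, against 125, 144 and 145 CPM in T11 (log2 -0.79 ± 0.10, adjusted p = 3.7e-10). Acly, which cleaves citrate to cytosolic acetyl-CoA, read 332, 381 and 332 CPM in PyMT-N, against 184, 177 and 187 CPM in PyMT-M, without overlap (log2 1.22 ± 0.09, adjusted p = 1.8e-21).

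The stearoyl-CoA desaturases Scd1 and Scd2, which put the double bond into newly made fatty acids, went opposite ways in 4T1. Scd1 (chr19:44394455-44407879, minus strand) read 75.3, 103 and 81.0 CPM in 4T1, against 144, 152 and 164 CPM in 67NR (log2 -0.96 ± 0.10, adjusted p = 1.6e-13). Scd2 (chr19:44293674-44306864, plus strand) read 1274, 1237 and 1204 CPM in 4T1, against 265, 267 and 275 CPM in 67NR (log2 2.07 ± 0.09, adjusted p = 1.2e-35). Neither overlapped between these lines, and 4T1 was the lowest line for Scd1 and the highest for Scd2. In 2208L both were higher than in T11: Scd1 at 400, 392 and 415 CPM, against 174, 158 and 191 CPM (log2 1.36 ± 0.09, adjusted p = 5.5e-24), and Scd2 by 0.71 ± 0.09 (adjusted p = 2.9e-11). The desaturases are close paralogs, and how reads that match both were counted is not given in the sources used here. Elovl6, an elongase, and Acsl3, an acyl-CoA synthetase, were higher in 4T1 and in 2208L and lower in PyMT-N. The 2208L call of Elovl6 was lost with library size alone and in 1 of the 6 runs that left out 1 library. Per kilobase of exon, Scd2 had the highest mean level of all members in lines (129 CPM per kb), followed by Fasn (62.7 CPM per kb) and Acly (54.1 CPM per kb).

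**Figure D4:**
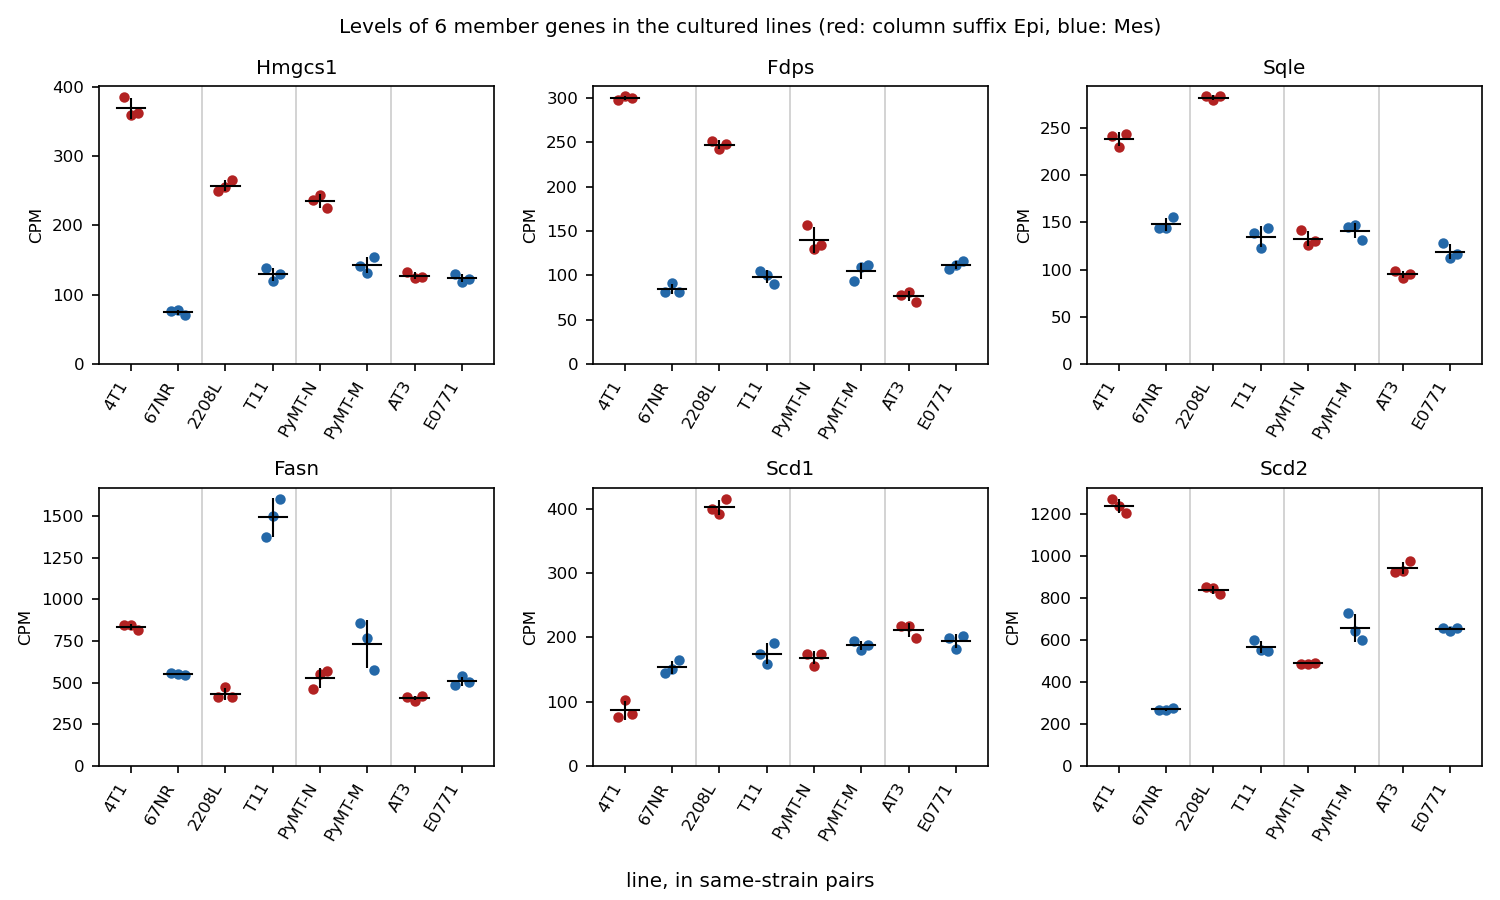
CPM of Hmgcs1, Fdps, Sqle, Fasn, Scd1 and Scd2 in the 3 libraries of each line (points), with the mean (horizontal bar) and SD (vertical bar), lines in same-strain pairs. Hmgcs1 and Fdps are high in 4T1 and 2208L, Fasn peaks in T11 (1372 to 1603 CPM), and 4T1 is lowest for Scd1 and highest for Scd2.

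Other lipid genes were counted from lists of genes outside the 31, beside the background of 47.8% of all genes called in the mean of the 4 line pairs (23.7% higher and 24% lower). In that mean, the fatty acid oxidation list had 1 gene higher and 6 lower of 10, with Acadl higher (log2 1.19 ± 0.05) and the electron carrier subunit gene Etfb lower (log2 -0.69 ± 0.06). The list of sterol efflux and liver X receptor genes had 2 higher and 5 lower of 10, with the exporter gene Abcg1 the farthest (log2 -1.48 ± 0.12). Lipid uptake and lysosomal handling had 4 higher and 3 lower of 9 tested, led by the fatty acid binding protein gene Fabp5 (log2 3.09 ± 0.10) and Lrp1, a lipoprotein receptor (log2 -1.11 ± 0.06). Lipid storage had 3 higher and 2 lower of 10, about the background share, led by the droplet coat gene Plin2 (log2 1.19 ± 0.05). Other lipid synthesis genes had 9 higher and 3 lower of 16, led by Mid1ip1, which encodes an activator of acetyl-CoA carboxylase (log2 2.45 ± 0.15).

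In sorted cells the members were read at lower levels. On the common CPM scale, mean levels were below those of lines for 26 of the 31 genes in macrophages and for 27 in neutrophils; Mvd, Tm7sf2 and Srebf2 were above them in both cell types, Ebp and Acly in macrophages, and Acaca in neutrophils. Culture, cell type and extraction kit change together there, so no test was made between lines and sorted cells. In such bulk samples a lower level cannot be told apart from fewer cells of the type that carries the RNA. The sorts held their markers: 9 macrophage markers summed to 6194 to 15750 CPM in macrophages and 666 to 4405 CPM in neutrophils, and 10 neutrophil markers summed to 264 to 8016 CPM in macrophages and 2963 to 26570 CPM in neutrophils. Most of the neutrophil-marker sum of T11 macrophages (3192 to 8016 CPM) was Mmp9, at a mean of 6009 CPM.

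Macrophages were compared with neutrophils as the mean of the 4 within-tumour differences. With TMM factors, 17 members were called higher and 1 lower (background 76.4% of 20364 genes, 28.2% higher and 48.2% lower), with a median log2 difference of 0.58 over the members and -0.63 over all genes. These directions depended on the scaling. With the size factors of DESeq2 the median over all genes moved by -0.26 and the members split as 15 higher and 5 lower. With library size alone the median over all genes moved by -0.65 and the members split as 6 higher and 9 lower, and with factors from genes above background it moved by -0.98 and they split as 2 higher and 15 lower. The share of all called genes that were higher was 37.0% with TMM factors, 28.6% with the size factors of DESeq2, 18.6% with library size alone and 9.39% with factors from genes above background. The receptor sum was 876 to 3256 CPM in macrophages, against 3877 to 18900 CPM in neutrophils, and its part in the split was not tested. Acly and Scd2 (higher) and Scd1 (lower) were the members whose call and direction held under all 4 scalings.

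Acly, the ATP citrate lyase gene, read 359, 321 and 285 CPM in 2208L macrophages, against 229, 241 and 257 CPM in 2208L neutrophils. In AT3 it read 654, 514 and 440 CPM in macrophages, against 163, 137 and 133 CPM in neutrophils. Macrophages lay above neutrophils in both tumours, without overlap. T11 macrophages held 289, 432 and 286 CPM, against 152, 96.0 and 112 CPM in T11 neutrophils. In E0771 it read 152, 227 and 304 CPM in macrophages, against 159, 166 and 122 CPM in neutrophils, the one tumour in which the cell types overlapped. The mean log2 difference was 1.76 ± 0.16 (adjusted p = 5.4e-14), and it was not equal between tumours (interaction, adjusted p = 3.0e-04): it was 2.61 ± 0.32 in both AT3 and T11, 1.12 ± 0.31 in E0771 and 0.68 ± 0.30 in 2208L, where it was not called (adjusted p = 0.15).

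Scd2 read 439, 331 and 320 CPM in 2208L macrophages, against 243, 293 and 233 CPM in 2208L neutrophils. T11 macrophages held 162, 148 and 142 CPM of it, against 58.3, 55.1 and 51.7 CPM in T11 neutrophils; neither tumour's cell types overlapped. In AT3 it read 156.5, 240 and 228 CPM in macrophages, against 66.5, 193 and 160.5 CPM in neutrophils, and in E0771 187, 181 and 202 CPM in macrophages, against 211, 163 and 180 CPM in neutrophils, and both of these overlapped. The mean log2 difference was 1.27 ± 0.16 (adjusted p = 3.8e-09), unequal between tumours (interaction, adjusted p = 0.0044). It was called in T11 (2.57 ± 0.36) and AT3 (1.19 ± 0.32) and not in 2208L (0.77 ± 0.31, adjusted p = 0.12) or E0771 (0.55 ± 0.32, adjusted p = 0.25). Scd1 went the other way, with 162, 210 and 237 CPM in 2208L macrophages, against 296, 363 and 365 CPM in 2208L neutrophils, and 11.3, 4.01 and 3.64 CPM in T11 macrophages, against 32.4, 100 and 22.8 CPM in T11 neutrophils. Its mean log2 difference was -0.99 ± 0.19 (adjusted p = 1.0e-05). Within single tumours Scd1 was called lower in T11 and was not called in 2208L, AT3 or E0771. Srebf2, at 257, 255 and 288 CPM in AT3 macrophages, against 120, 195 and 142 CPM in AT3 neutrophils, was called higher on average with TMM factors (log2 1.04 ± 0.16, adjusted p = 1.3e-07) and not with factors from genes above background (log2 0.05). That mean covers unequal tumours (interaction, adjusted p = 9.8e-05). In 2208L it read 130, 71.5 and 110 CPM in macrophages, against 166, 197 and 166 CPM in neutrophils, the opposite order without overlap, and was not called (log2 -0.49 ± 0.31, adjusted p = 0.36). In T11 the difference was 2.15 ± 0.32, in AT3 1.46 ± 0.31 and in E0771 1.04 ± 0.31, all called.

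**Figure D5:**
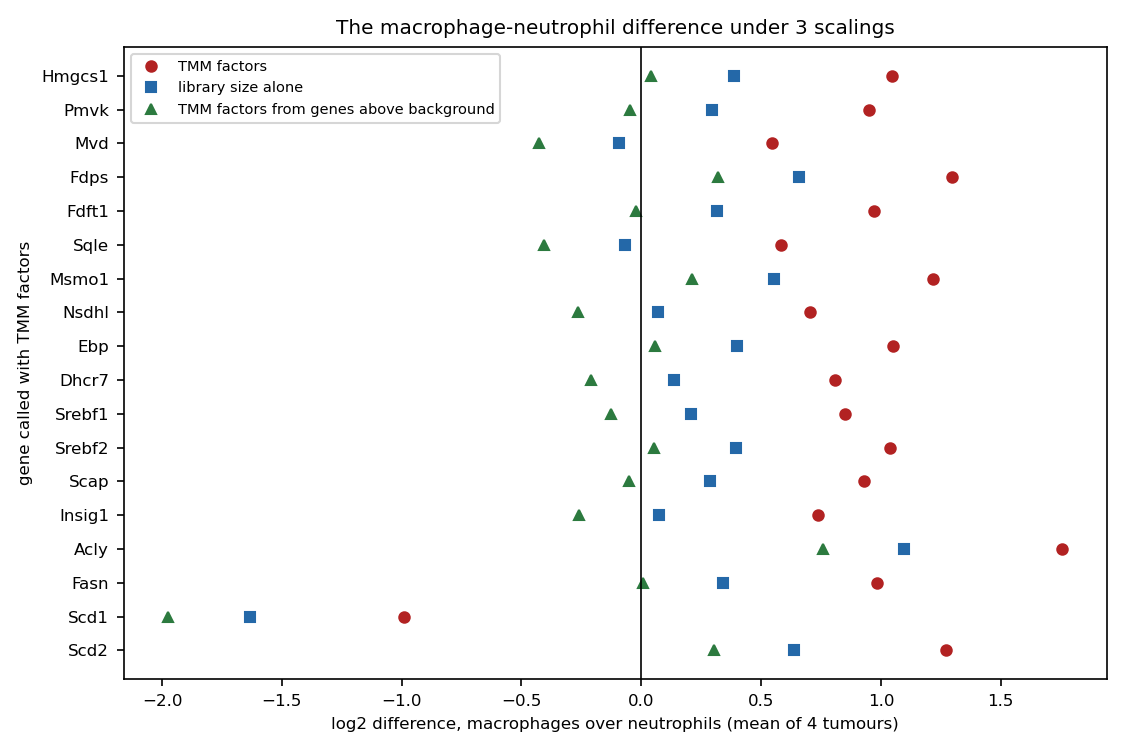
Mean log2 difference of macrophages over neutrophils for the 18 members called with TMM factors, under TMM factors (circles), library size alone (squares) and factors from genes above background (triangles). All genes shift left together from the circles to the triangles; Acly and Scd2 stay right of 0, Scd1 stays left, and 9 members cross 0.

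Within tumours the counts were 12 higher and 2 lower in T11 (background 67.2%, 27.4% higher and 39.8% lower), 0 higher and 1 lower in 2208L (background 8.02%, 4.74% higher and 3.28% lower), 3 higher and 0 lower in E0771 (background 17.5%, 11.7% higher and 5.76% lower), and 17 higher and 0 lower in AT3 (background 50.7%, 19.3% higher and 31.4% lower). In AT3 the split was 15 higher and 1 lower with the size factors of DESeq2, 10 and 3 with library size alone and 4 and 5 with the above-background factors, and Acly, Fasn, Fdps and Msmo1 were higher under all 4 scalings. Fdps read 40.2, 40.0 and 56.0 CPM in AT3 macrophages, against 11.1, 15.2 and 25.8 CPM in AT3 neutrophils, without overlap (log2 2.08 ± 0.41, adjusted p = 8.0e-05). Msmo1 read 29.1, 46.8 and 54.5 CPM in AT3 macrophages, against 14.3, 15.2 and 17.2 CPM in AT3 neutrophils (log2 2.18 ± 0.47, adjusted p = 2.2e-04). Over all neutrophils Fdps averaged 3.16 times and Msmo1 1.94 times the receptor background, so the lower side of both stood near it. Fasn read 234, 276 and 282 CPM in AT3 macrophages, against 109, 147 and 168 CPM in AT3 neutrophils (log2 1.58 ± 0.30, adjusted p = 4.1e-05). In T11 the split became 8 higher and 4 lower with the size factors of DESeq2. It was 3 higher and 8 lower with library size alone, and 2 higher and 20 lower with the above-background factors. Acly and Scd2 (higher) and Tm7sf2 and Scd1 (lower) held under these scalings, and of them only Acly and Scd2 held under every alternative run. Tm7sf2 averaged 2.06 times the receptor background over all neutrophils. The receptor genes summed to 1767, 990 and 1484 CPM in T11 macrophages, against 13020, 18900 and 14280 CPM in T11 neutrophils, and their part in the Tm7sf2 call was not tested. In 2208L the called gene was Sc5d, a sterol desaturase, at 5.26, 9.36 and 20.5 CPM in macrophages, against 15.6, 50.0 and 57.5 CPM in neutrophils, which overlapped (log2 -1.67 ± 0.47, adjusted p = 0.019). There, 6 members had an unadjusted p under 0.05. The call of Sc5d was lost without 2208L macrophage 1 or 2 and without 2208L neutrophil 2 or 3, and the count was 2 without 2208L macrophage 3. In E0771 the 3 called, Srebf2, Scap and Acly, did not hold as higher with library size alone (0 higher and 4 lower) or with the above-background factors (0 higher and 8 lower), while the size factors of DESeq2 gave 3 higher and 1 lower, and the count was 5 without E0771 macrophage 1 and 6 without E0771 macrophage 2. The 4 differences were not equal for 8 members (background 26.8%), a share at or below the background.

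Among macrophages, 14 of 30 members tested differed between the 4 tumours (background 35.5% of 14715 genes); Idi1 did not pass the filter on low counts. The count was 7 without AT3 macrophage 2 and 6 without AT3 macrophage 3. In 2208L against T11, 2 were higher and 1 lower (background 15.7%, 7.77% higher and 7.94% lower), and these 3 calls held under every scaling. Scd1 read 162, 210 and 237 CPM in 2208L macrophages, against 11.3, 4.01 and 3.64 CPM in T11 macrophages, the largest difference of any member in the study (log2 4.86 ± 0.38, adjusted p = 1.7e-11). Scd2 was also higher (log2 1.18 ± 0.25, adjusted p = 9.7e-04). Srebf2 read 130, 71.5 and 110 CPM in 2208L macrophages, against 219, 268 and 184 CPM in T11 macrophages, without overlap (log2 -1.20 ± 0.28, adjusted p = 0.0023).

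In AT3 against E0771 macrophages 6 were higher and 1 lower (background 18.4%, 9.70% higher and 8.69% lower). The split was 5 higher and 1 lower with the size factors of DESeq2 and 1 and 1 with library size alone and with the above-background factors. The genes called under all 4 scalings were Acly, higher (log2 1.69 ± 0.28, adjusted p = 6.2e-05), and Scd1, lower, at 12.8, 10.2 and 17.2 CPM in AT3 macrophages, against 42.4, 39.8 and 39.5 CPM in E0771 macrophages, without overlap (log2 -1.13 ± 0.36, adjusted p = 0.027). The call of Scd1 was lost with no filter and without AT3 macrophage 1 or 2 or E0771 macrophage 1, 2 or 3. The count of 7 fell to 2 without AT3 macrophage 2, to 3 without AT3 macrophage 3, to 2 without E0771 macrophage 1 and to 4 without E0771 macrophage 2. E0771 macrophage 1, the library labelled BALB/C, stood apart in several members: Hmgcs1 was 10.9 CPM there, against 95.7 and 85.3 CPM in the other E0771 macrophages, Msmo1 was 6.84 CPM, against 55.9 and 60.2 CPM, and Fasn was 578 CPM, against 327 and 314 CPM. Acat2 had 0 counts in it, which allows up to 4.10 CPM, a limit that covers counting error only. The dendritic cell markers Flt3, Zbtb46, Xcr1 and Ccr7 were each higher in E0771 than in AT3 macrophages, without overlap. Ccr7 read 115, 318 and 383 CPM in E0771 macrophages, against 1.71, 9.49 and 2.24 CPM in AT3 macrophages. The part of other cells in the members' differences was not tested.

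Among neutrophils, 9 members differed between tumours (background 31.4% of 18158 genes), and the count was 5 without 2208L neutrophil 2 or without T11 neutrophil 3. In 2208L against T11, 7 were higher and 1 lower (background 31.9%, 19.4% higher and 12.5% lower). With library size alone the median of all genes moved by -0.63 and the split was 4 and 7, and with factors from genes above background it moved by -1.49 and the split was 2 and 19. Scd1 and Scd2 (higher) and Lss, lanosterol synthase (lower), held under these. Scd1 read 296, 363 and 365 CPM in 2208L neutrophils, against 32.4, 100 and 22.8 CPM in T11 neutrophils (log2 3.39 ± 0.39, adjusted p = 1.3e-07). Scd2 read 243, 293 and 233 CPM, against 58.3, 55.1 and 51.7 CPM (log2 2.86 ± 0.40, adjusted p = 3.0e-06). Lss read 32.4, 33.9 and 30.8 CPM in 2208L neutrophils, against 80.9, 112 and 93.1 CPM in T11 neutrophils (log2 -0.90 ± 0.30, adjusted p = 0.021), and its call was lost in the DESeq2 test and without 2208L neutrophil 1 or 3 or T11 neutrophil 2 or 3. The count of 8 was 5 without 2208L neutrophil 1 and 4 without T11 neutrophil 2. Scd1, Scd2 and Lss did not overlap between these tumours. Lss averaged only 2.73 times the receptor background over all neutrophils. The receptor genes summed to 6087, 3877 and 5848 CPM in 2208L neutrophils, against 13020, 18900 and 14280 CPM in T11 neutrophils. Over all neutrophils Scd1 averaged 14.8 times and Scd2 15.85 times that background, means that include the higher 2208L levels. The part of the background in the Lss call and in the size of the Scd1 and Scd2 differences was not tested. In AT3 against E0771 neutrophils 0 members were called by edgeR (background 4.19%, 2.36% higher and 1.83% lower), 4 had an unadjusted p under 0.05, and the DESeq2 test called 1; edgeR called 1 without AT3 neutrophil 1 or 2.

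Scd1 in the 2208L sorts stood beside markers of other cells. The 9 macrophage markers summed to 3485 to 4405 CPM in 2208L neutrophils, against 666 to 1345 CPM in T11 neutrophils; C1qa read 903, 1003 and 715 CPM in 2208L neutrophils, against 172, 51.1 and 236 CPM in T11 neutrophils. Epithelial markers summed to 344 to 581 CPM in 2208L macrophages and 532 to 617 CPM in 2208L neutrophils, on average 8.97% and 11.7% of the 2208L line, against 16.4 to 27.1 CPM in T11 macrophages and 176 to 197 CPM in T11 neutrophils. Scd1 itself stood at 50.5% of its 2208L line level in 2208L macrophages and at 84.8% in 2208L neutrophils. A list of adipocyte markers, chosen after the values were seen, summed to 12.8 to 42.6 CPM in 2208L macrophages and 51.7 to 69.2 CPM in 2208L neutrophils, against 8.59 to 16.4 CPM in T11 macrophages and 149 to 203 CPM in T11 neutrophils. The part of other cells in the Scd1 level was not tested.

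Lists outside the 31 were read for macrophages against neutrophils beside a background of 76.4% of all genes (28.2% higher and 48.2% lower). With TMM factors there were 10 higher and 0 lower of 10 sterol efflux and liver X receptor genes, led by Nr1h3, which encodes liver X receptor alpha (log2 1.80 ± 0.19). Lipid uptake and lysosomal handling had 8 higher and 1 lower of 10, with the scavenger receptor gene Msr1 at 2.78 ± 0.17 and Vldlr at -2.71 ± 0.24. Fatty acid oxidation had 9 higher and 0 lower of 10, led by Hadha (log2 1.79 ± 0.14). Lipid storage had 6 higher and 3 lower of 10, with the triglyceride synthesis gene Dgat2 at -2.05 ± 0.22, and other lipid synthesis genes had 10 higher and 2 lower of 16, led by the elongase gene Elovl1 (log2 1.67 ± 0.18). These directions also depended on the scaling. With factors from genes above background, sterol efflux had 4 higher and 1 lower, lipid uptake 6 and 2, fatty acid oxidation 4 and 1, lipid storage 1 and 5, and other lipid synthesis 3 and 7. With library size alone the counts were 7 and 0, 8 and 2, 7 and 0, 2 and 4, and 5 and 6, and with the size factors of DESeq2 8 and 0, 8 and 2, 9 and 0, 4 and 3, and 8 and 4, in the same order of lists.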

How the data were processed

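Total RNA of 48 samples was extracted with column kits, a miniprep kit for lines and a microprep kit for sorted cells, per the labels' protocols. The values are raw counts per gene, deposited by the authors in one table. Per the submitters' processing notes, bcl2fastq 2.17 and STAR 2.4.2a with mouse build mm10 were used; the counting program, its strand setting and the handling of reads that match several genes are not given in the sources used here. The column of the PyMT line with suffix E was taken as PyMT-N because the other PyMT column names PyMT-M. Gene lengths and coordinates came from GENCODE M21 (GRCm38), with 22753 symbols matched directly, 934 through synonyms and 367 unmatched.

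CPM were computed from the deposited counts outside Rn45s and Lars2. Tests used edgeR 4.0.16 (R 4.3.3) quasi-likelihood fits with TMM factors, genes kept by filterByExpr by group, and p-values adjusted by Benjamini-Hochberg across every gene kept, at a threshold of 0.05. The 24 line libraries, the 24 sorted libraries, the 12 macrophage and the 12 neutrophil libraries were fitted separately. Alternatives were DESeq2 1.42.0 and its size factors, library size without TMM, no filter, the replicate number as a block, fits of only the 2 groups compared, leaving out each library, and, chosen after the data were seen, TMM factors from genes above the receptor background. Samples with the same number did not deviate together in every pair. SE come from the fits and SD from the 3 libraries of a group, and both include the spread between libraries. The limit given for 0 counts covers counting error only.

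On simulated counts the 4T1 against 67NR test recovered 97% of genes changed by 1 on the log2 scale and 100% of those changed by 2. In sorted cells it was 22% and 94% for macrophages against neutrophils in T11. It was 25% and 93% for 2208L against T11 neutrophils, and 28% and 89% for 2208L against T11 macrophages. Changes were placed only in genes above a set expected count, so recovery was not measured for members read with few counts. All other genes had the same mean in every simulated group, unlike in the data. Recovery under the uncertain scaling of the real groups was therefore not measured. The members and gene lists were chosen with earlier results of these data known. Any member could be named. Values per library were given, in each comparison, for up to 6 called members with the largest absolute log2 difference and, where the text turns on them, for Hmgcs1, Sqle, Fdps, Insig1, Srebf1, Srebf2, Fasn, Acaca, Scd1 and Scd2. Those of Lss, Scap and Acly, and of E0771 macrophage 1, that fall outside this were chosen after their values were seen. Of the other lists, up to 3 called genes with the largest difference were named.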

Additional observations from a re-analysis of the deposited data

Results flagged for a closer look

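The 4 same-strain differences between lines were unequal for 29 of the 31 genes by the interaction test of edgeR. Of these, 15 were called higher in at least 1 pair and lower in at least 1 other, which is 48.4% of the members, where 32.4% of all 18348 genes tested were. The count of members was 15 with the size factors of DESeq2, 16 with library size alone and 14 with factors from genes above background. The lower calls of Cyp51, Msmo1 and Elovl6 in AT3 and of Srebf2 in 4T1 were lost under these last 2 scalings. Among the isoprenoid steps these were Fdps (adjusted p = 2.43e-29), Pmvk (1.05e-12) and Mvk (3.5e-12), each higher in 4T1 and 2208L and lower in AT3. Among the later sterol steps they were Cyp51 (adjusted p = 3.21e-24), Ebp (3.93e-24), Dhcr7 (5.19e-24), Nsdhl (8.33e-22), Msmo1 (1.05e-20) and Sqle (6.19e-20), each lower in AT3 than in E0771. Srebf2 (adjusted p = 1.15e-08) was the one regulator. Among the fatty acid genes they were Scd1 (adjusted p = 2.27e-26), Fasn (3.98e-23), Elovl6 (1.01e-16), Acsl3 (3.74e-16) and Acaca (2.16e-10).

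The difference of macrophages from neutrophils was unequal between the 4 tumours for 8 of the 31 genes, at or below the background of 26.8% of all genes, so the count says nothing particular to the members. They were Srebf2 (adjusted p = 9.84e-05), Acly (0.000301), Scd2 (0.00439), Sqle (0.0127), Sc5d (0.0198), Stard4 (0.0323), Srebf1 (0.0328) and Fdps (0.035).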

How the results depend on the processing

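In lines, no called value changed sign and every total count stayed within 1.5 times under the alternatives run, while the splits moved: in AT3 against E0771 the higher calls were 9 with library size alone and 10 with factors from genes above background in place of 4, and in PyMT-N against PyMT-M the lower calls were 10 with library size alone in place of 5. Leaving out 1 library at a time gave 26 to 28 calls in 4T1 against 67NR, 22 to 25 in 2208L against T11, 18 to 22 in PyMT-N against PyMT-M, 13 to 17 in AT3 against E0771, 25 to 28 in the mean of the pairs, 31 to 31 for any difference and 29 to 29 for unequal pairs. In sorted cells it gave 18 to 20 for macrophages against neutrophils, 13 to 14 in T11, 0 to 2 in 2208L, 2 to 6 in E0771, 16 to 19 in AT3 and 6 to 11 for unequal tumours. Among neutrophils it gave 5 to 11 for any difference, 4 to 8 in 2208L against T11 and 0 to 1 in AT3 against E0771, and among macrophages 6 to 14, 3 to 4 and 2 to 6.

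With factors from genes above background, chosen after the data were seen, the counts became 22 in T11, 2 in 2208L, 8 in E0771 and 9 in AT3 for macrophages against neutrophils. They became 21 for any difference among neutrophils, 21 in 2208L against T11 neutrophils, 2 in AT3 against E0771 neutrophils and 2 in AT3 against E0771 macrophages. With library size alone they became 2 in 2208L for macrophages against neutrophils, 3 in AT3 against E0771 neutrophils and 2 in AT3 against E0771 macrophages. DESeq2 gave 1 in AT3 against E0771 neutrophils, and fitting only the 2 groups gave 4 in AT3 against E0771 macrophages.

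With factors from genes above background these log2 values reversed for macrophages against neutrophils: Srebf1 -0.13, Fdft1 -0.020, Sqle -0.41, Pmvk -0.049, Insig1 -0.26, Dhcr7 -0.21, Mvd -0.43, Scap -0.052 and Nsdhl -0.26. In T11 they were Srebf1 -0.40, Fasn -0.73, Hmgcs1 -0.11, Fdft1 -0.72, Sqle -0.87, Scap -0.94 and Ebp -0.32, and in AT3 Lss -0.038. For 2208L against T11 neutrophils they were Srebf1 -0.42, Srebf2 -0.22, Mvd -0.57 and Sc5d -0.23. With library size alone Sqle (-0.069) and Mvd (-0.094) reversed for macrophages against neutrophils, and in T11 Fasn (-0.073), Fdft1 (-0.062), Sqle (-0.21) and Scap (-0.28). The cause was not tested. With the replicate number as a block the counts stayed at 28 in 4T1, 25 in 2208L, 21 in PyMT-N, 15 in AT3 and 18 for macrophages against neutrophils, and the splits became 13 and 1 in T11 in place of 12 and 2, 6 and 1 in place of 7 and 1 for 2208L against T11 neutrophils, and 5 and 1 in place of 6 and 1 for AT3 against E0771 macrophages. In each tumour the column headers give macrophages and neutrophils the same numbers. Correlations of same-numbered macrophages and neutrophils ran from -0.11 to 0.16. Such low values cannot tell whether both sorts came from the same animals. Depth outside Rn45s and Lars2 was lowest in neutrophils, with a median of 647800 counts, against 1172000 in macrophages and 2988000 in lines.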
